A study of Mus musculus with 10 samples.

Results

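The genes described here encode subunits of the respiratory chain and the ATP synthase. They were found by symbol: every gene with a probe set annotated to exactly 1 symbol that starts with Ndufa, Ndufb, Ndufc, Ndufs, Ndufv, Uqcr, Cox4i, Cox5, Cox6, Cox7, Cox8 or Atp5, leaving out the Ndufaf assembly factors. This gave 78 genes of 18193 with such a probe set. By complex, 36 belong to complex I, 8 to complex III, 17 to complex IV and 17 to complex V, with Ndufa4 counted by its symbol in complex I although it is now assigned to complex IV. For each gene, the probe set with the greatest mean level was taken, a choice that used the overall level but no difference between groups.

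The series measured expression on 10 Affymetrix Mouse430_2 arrays, 2 per group, from CD4+ T cells of mouse spleen that were sorted, stimulated through CD3 and CD28, infected with a retrovirus and sorted again for its NGFR marker. All mice carried DEREG, a transgene that expresses GFP from the Foxp3 promoter. The transcription factor Foxp3 is the hallmark of regulatory T cells, and scurfy is a loss-of-function mutation of its gene. The scurfy Foxp3 group was GFP+ cells of DEREG/Scurfy mice given the virus with Foxp3, and the scurfy mock group was the same starting cells given the empty virus. The Treg group was GFP+ cells of DEREG mice with empty virus. The Tconv Foxp3 group was GFP- cells (conventional T cells) of DEREG mice with the Foxp3 virus, and the Tconv mock group was GFP- cells with empty virus. The titles call GFP+ starting cells epigenetics(+) and GFP- starting cells epigenetics(-). The abbreviation D_S was read as DEREG/Scurfy, although the strain field names DEREG on Balb/c for all samples. The sources used here give neither mouse age nor the number of animals. Whether the 2 arrays of a group stem from different mice or cultures is unstated, so the p-values cover array-to-array spread that may be technical.

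The median intensity over all probe sets lay between 18.8 and 36.5, so the deposited values did not share a common level. Of 8 CD4 T cell markers, 7 had a probe set and all 7 were above the array median on every array. Foxp3 intensity was 948 and 691 in scurfy Foxp3 cells, 1188 and 1114 in scurfy mock cells, 2130 and 3128 in Treg, 18.0 and 18.9 in Tconv Foxp3 cells and 53.9 and 35.9 in Tconv mock cells. The arrays labelled Foxp3 were thus not higher than their mock arrays, and the part of the transcript this probe set reads, in relation to the viral insert, was not known here. The 2 groups labelled Foxp3 are called by their labels throughout, and directions drawn from them rest on the label alone. The array labelled scurfy Foxp3 1 correlated at 0.974 with scurfy mock 2, above its correlation of 0.953 with its own replicate. The scurfy mock arrays correlated at 0.921 with each other, the lowest of the replicate pairs. Scurfy mock 2 correlated more with most arrays of other groups than with its own replicate, for example at 0.947 with Tconv mock 2.

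Complex I takes electrons from NADH, complex III passes them from ubiquinol to cytochrome c, and complex IV hands them to oxygen. All of these pump protons, and complex V, the ATP synthase, uses the proton gradient to make ATP. Activated T cells raise both glycolysis and respiration, and regulatory T cells are known for leaning on oxidative metabolism more than effector cells do. The subunits encoded in mitochondrial DNA were not analysed here.

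The promoters of respiratory genes are known for sites of the factors NRF1, GABPA (of the ETS family) and YY1. Windows of 250 bases before to 50 after the start were available for 64 of the 78 genes, 69 windows in all (RefSeq, GRCm38.p6). Exact matches on either strand were counted, and an overlap between motifs was not excluded. The NRF1 motif, the capitals in Atp5g2 below, was found in 4 of 69 windows (5.8%), against 0.971% of all 32851 windows. The ETS and GABPA motif (ACTTCCGG) was found in 5 windows (7.25%), against 3.89% of all. The YY1 motif (AAGATGGC) was found in 9 windows (13%), against 2.75% of all. Of these YY1 matches, only that of Atp5j lay wholly in the 250 bases before the start. The last 100 bases before the start are shown for 4 genes that recur below, with any match in capitals. Atp5g1 (chr11:96075632-96075731, minus strand) and Atp5g2 (chr15:102671048-102671147, minus strand) encode the same ring subunit. Uqcr11 (chr10:80406822-80406921, minus strand) and Ndufb2 (chr6:39592465-39592564, plus strand) had the lowest p-values over the 5 groups. The capitals mark NRF1 in Atp5g2 and, on the opposite strand, ETS and GABPA in Uqcr11. Atp5g1 and Ndufb2 hold no match in these bases.
Atp5g1: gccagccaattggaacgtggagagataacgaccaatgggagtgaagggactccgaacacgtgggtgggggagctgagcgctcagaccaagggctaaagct
Atp5g2: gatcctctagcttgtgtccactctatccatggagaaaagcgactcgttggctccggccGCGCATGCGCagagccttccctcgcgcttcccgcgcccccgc
Uqcr11: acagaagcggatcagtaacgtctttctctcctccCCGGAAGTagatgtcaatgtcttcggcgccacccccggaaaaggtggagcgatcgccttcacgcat
Ndufb2: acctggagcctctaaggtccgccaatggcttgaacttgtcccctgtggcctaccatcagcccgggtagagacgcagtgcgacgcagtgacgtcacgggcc

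Of the 78 genes, 72 passed the filter on low values (a value over its array's median on 2 or more arrays): 34 of complex I, 8 of complex III, 13 of complex IV and 17 of complex V. The other 6 stayed low. Cox4i2, Cox7b2 and Cox8b are isoforms known from lung, testis and muscle, and their intensities were 2.65 to 45.1, 0.0968 to 3.51 and 2.61 to 18.1. Ndufa4l2, a paralogue of Ndufa4 induced by hypoxia, had 6.08 to 29.9. The general subunits Cox7c and Ndufb4 also lay at 1.77 to 15.8 and 0.45 to 20.7, which says nothing of their transcripts beyond the single-symbol probe sets used here. The highest Cox4i2 value, 45.1, was on scurfy mock 2, and its other 9 arrays were at 7.73 or less.

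The subunit genes varied little. The range of the 5 group means (log2 of intensity + 16, the scale of all differences below) had a median of 0.45 over the 72 genes, against 0.77 over all 11318 genes tested. It was under 1, a 2-fold range, for 66 of 72 (91.7%), against 68.2% of all genes. For 54 of 72 it exceeded the largest gap between replicates of that gene, a gap whose median was 0.32. The share of all genes with such a range was not worked out. Atp5h, a stalk subunit of the ATP synthase, had the smallest range of 0.12, with intensities of 6570.0 and 6030.1 in scurfy Foxp3 cells, 6456 and 6401 in scurfy mock cells, 6182 and 6501 in Treg, 6263 and 7157 in Tconv Foxp3 cells and 6409 and 5951 in Tconv mock cells. The lowest and highest of these arrays were within 1.20-fold. The subunit genes were also bright, with a median level of 10.93 to 11.52 per array, against 7.48 to 8.00 over all genes tested, and the part of brightness in the narrow range and in the comparisons with all genes below was not tested. The heatmap of all 72 genes shows this narrow spread by complex.

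**Figure D1:**
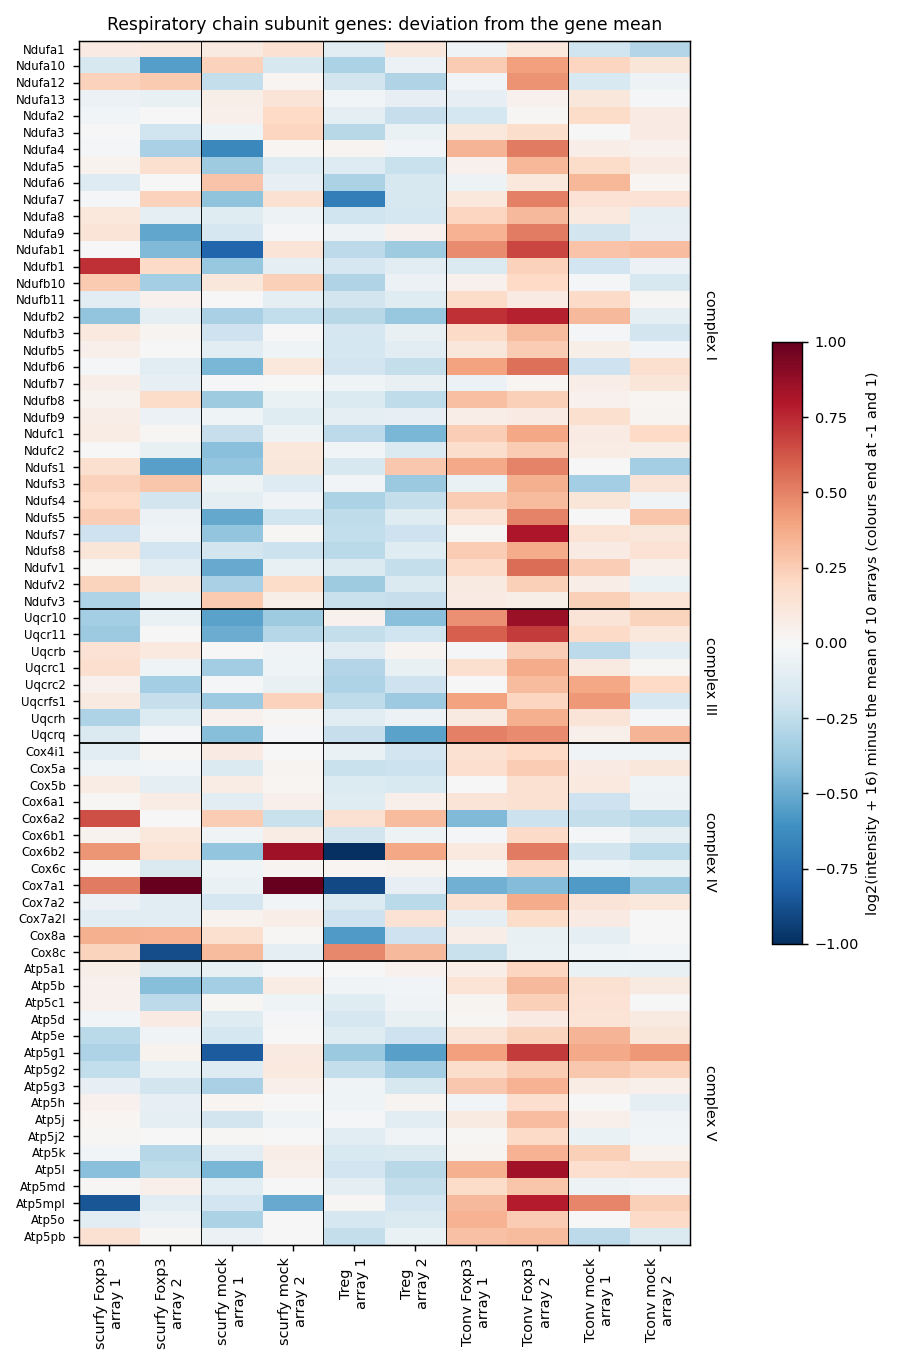
Each row is 1 of the 72 tested subunit genes, grouped by complex, and each column is 1 array. Colour gives log2(intensity + 16) minus the gene's mean over the 10 arrays, and most rows span less than 1 log2 unit between groups.

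Treg cells were compared with Tconv mock cells, both given empty virus. Most subunit genes lay lower in Treg: 61 of 72 differences were below 0, with a median of -0.20. The median over all tested genes was 0.19, and 64.8% of all genes lay above 0. That all-gene median depended on the Treg array: it was 0.02 without Treg 2 and 0.36 without Treg 1. In 50 of 72 (69.4%) both Treg arrays were below both Tconv mock arrays, against 16.3% of all genes, and in 6 both were above, against 35.2%. The members' median was -0.26 after quantile normalization, where all genes had -0.05, and -0.55 with arrays scaled to a common 75th percentile, where all genes had -0.11. No subunit gene passed limma's test (0 of 72 at an adjusted p under 0.05, against 1.09% of all genes; 1 of 72 at an unadjusted p under 0.05, against 15.4%). The 95% interval lay within -1 to 1 for 54 of 72, against 32% of all genes. In bulk arrays, fewer cells of a type and less RNA per cell cannot be told apart.

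The lower values ran through all 4 complexes. The count below 0 was 31 of 34 in complex I (median -0.22), 7 of 8 in complex III (-0.36), 9 of 13 in complex IV (-0.08) and 14 of 17 in complex V (-0.16). Within complex V, the c-ring, the rotor through which protons pass, had the median furthest below 0 among the subunit roles with several genes, -0.54 over its 3 genes. Atp5g1, 1 of these 3, had an intensity of 459 and 406 in Treg, against 779 and 811 in Tconv mock cells. The groups did not overlap, and the difference was -0.86 ± 0.33 (SE, n = 2 arrays per group; limma adjusted p = 0.265). Atp5g2, which encodes the same mature protein, had 772 and 713 in Treg, against 1105 and 1073 in Tconv mock cells, a difference of -0.54 ± 0.24 (adjusted p = 0.325). Atp5g3, the remaining copy, had 4429 and 4066 in Treg, against 4781 and 4707 in Tconv mock cells, a difference of -0.16 ± 0.25. All 3 were lower on both Treg arrays, by unequal amounts.

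In the catalytic head of the ATP synthase 4 of 5 genes were below 0, with a median of -0.15. Atp5a1, the alpha subunit, had 7133 and 7386 in Treg, against 6852 and 6796 in Tconv mock cells. Atp5b, the beta subunit that makes ATP, had 4325 and 4346 in Treg, against 4924 and 4723 in Tconv mock cells. Their differences were 0.09 ± 0.24 and -0.15 ± 0.28, of opposite sign and both smaller than their SE. Atp5c1, Atp5d and Atp5e, the gamma, delta and epsilon subunits, were lower on both Treg arrays, with differences of -0.15 ± 0.25, -0.24 ± 0.23 and -0.40 ± 0.25.

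In complex III, Uqcrq, a small subunit, had 875 and 707 in Treg, against 1071 and 1309 in Tconv mock cells, a difference of -0.58 ± 0.27 (limma adjusted p = 0.344). Uqcrc2, a core protein, had 1581 and 1696 in Treg, against 2565 and 2246 in Tconv mock cells, a difference of -0.55 ± 0.26. Uqcrfs1, the Rieske iron-sulfur protein, had 791 and 730.3 in Treg, against 1283 and 840.2 in Tconv mock cells, and its Tconv mock arrays were wide apart. Uqcrb was the exception among the 8, at 0.14 ± 0.24.

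In complex I, 5 of the 6 core subunits measured (the electron-carrying arm) were below 0 with a median of -0.28. Ndufv1, which binds NADH, had 1262 and 1186 in Treg, against 1665 and 1448 in Tconv mock cells, a difference of -0.34 ± 0.27. Ndufs7, an iron-sulfur subunit near the quinone site, had 839.9 and 865 in Treg, against 1099 and 1084 in Tconv mock cells. Both core genes were lower on both Treg arrays. Ndufs8 and Ndufv2 differed by -0.31 ± 0.25 and -0.25 ± 0.27, Ndufs3 by -0.09 ± 0.29, and Ndufs1, the largest subunit, by 0.22 ± 0.33.

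Ndufab1, the mitochondrial acyl carrier protein that is also a complex I subunit, had 768 and 719 in Treg, against 1128 and 1144 in Tconv mock cells, a difference of -0.60 ± 0.33. Its other probe sets went both ways: of 4, 2 gave -0.49 and -0.23 and 2 gave 0.94 and 0.48, so this gene's direction depends on the probe set. Ndufa1, an X-linked accessory subunit, was among the few with higher Treg arrays, 4513 and 5279 in Treg, against 4240.4 and 3984 in Tconv mock cells, a difference of 0.25 ± 0.24 that became -0.10 with a common 75th percentile.

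Complex IV subunits expressed in most tissues had differences from -0.34 to 0.09. Cox4i1, the common form of subunit 4, had 3646 and 3340.4 in Treg, against 3735 and 3720.0 in Tconv mock cells. Cox5a had 2888 and 2903 in Treg, against 3573 and 3655 in Tconv mock cells, a difference of -0.32 ± 0.23. Of the 4 tissue isoforms that passed the filter, 2 were higher in Treg. Cox6a2, the heart and muscle form, had 88.9 and 101 in Treg, against 64.01 and 62.2 in Tconv mock cells, and Cox8c, a testis form, had 34.3 and 29.3 in Treg, against 19.0 and 19.3 in Tconv mock cells. The differences were 0.49 ± 0.30 and 0.44 ± 0.36 (limma adjusted p = 0.485 and 0.612), with Cox8c close to the array medians.

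**Figure D2:**
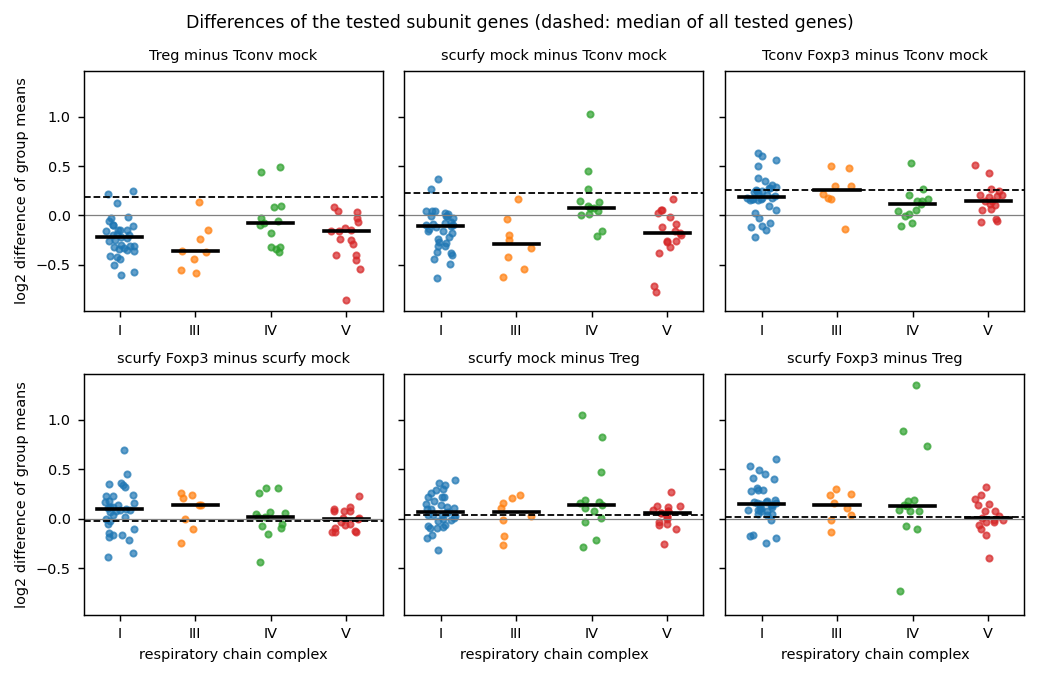
Each point is the fitted log2 difference of 1 subunit gene, by complex, in each comparison between groups, and the horizontal bars are medians. Points for Treg against Tconv mock lie mostly below 0, and none passed the test.

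Scurfy mock cells, which started GFP+ but lack working Foxp3, were compared with the same Tconv mock arrays. Differences were below 0 for 49 of 72 genes, with a median of -0.11, against 0.22 over all genes, of which 68% lay above 0. Both scurfy mock arrays were below both Tconv mock arrays for 31 of 72 (43.1%), against 12.1% of all genes, and above for 9, against 38.8%. After quantile normalization 63 of 72 lay below 0 (median -0.27, all genes -0.02), and with a common 75th percentile 68 of 72 did (median -0.42, all genes -0.05). By limma 0 of 72 passed (0.574% of all genes did), and 2 had an unadjusted p under 0.05, against 13.8% of all. This comparison shares its Tconv mock arrays with the Treg one, so the likeness of their values is no separate evidence.

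By complex, the median was -0.11 in complex I, -0.29 in complex III, 0.08 in complex IV (-0.06 and -0.24 under those scalings) and -0.18 in complex V. Atp5g1 had 329 and 637 in scurfy mock cells, against 779 and 811 in Tconv mock cells, a difference of -0.77 ± 0.33 (limma adjusted p = 0.351). Its scurfy mock arrays were far apart: the difference was -0.31 without scurfy mock 1 and -1.23 without scurfy mock 2. Atp5mpl, a small membrane subunit of the ATP synthase, had 943 and 758 in scurfy mock cells, against 1521 and 1275 in Tconv mock cells, a difference of -0.71 ± 0.33. Uqcr10 and Uqcr11, small subunits of complex III, differed by -0.62 ± 0.28 and -0.54 ± 0.25. Ndufab1 differed by -0.63 ± 0.33, with scurfy mock arrays at 526 and 1009 (-0.17 without scurfy mock 1 and -1.09 without scurfy mock 2), again with other probe sets of either sign (-0.69, -0.10, 1.17 and 0.90).

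On the deposited scale 11 of 13 complex IV genes lay above 0. Cox7a1, the heart and muscle form of subunit 7a, had 78.2 and 206 in scurfy mock cells, against 50.5 and 59.98 in Tconv mock cells. The difference of 1.03 ± 0.45 (limma adjusted p = 0.357) was 0.41 without scurfy mock 2 and 1.64 without scurfy mock 1. Ndufa1 had 5180.2 and 5427 in scurfy mock cells, against 4240.4 and 3984 in Tconv mock cells, a difference of 0.37 ± 0.24. Cox6a2 differed by 0.27 ± 0.30 and, after quantile normalization, by -0.017, and it was 0.034 without scurfy mock 1.

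The arrays labelled Tconv Foxp3, whose Foxp3 signal was not above that of mock, were compared with Tconv mock cells. On the deposited scale 59 of 72 differences were above 0, with a median of 0.17, but the median over all genes was higher still at 0.26 and 72.4% of all genes lay above 0. Both Tconv Foxp3 arrays were above both mock arrays for 39 of 72 genes (54.2%), against 47.6% of all genes, and below for 5, against 11.6%. The direction turned with the scaling: the members' median was -0.040 after quantile normalization and -0.14 with a common 75th percentile, with 43 and 61 of 72 below 0. Without Tconv Foxp3 2 the median was 0.075 and 23 lay below 0, where all arrays gave 13. By limma 0 of 72 passed (0.106% of all genes did), and 1 had an unadjusted p under 0.05, against 13.9% of all.

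Ndufb2, an accessory subunit of the complex I membrane arm, had 696 and 716 in Tconv Foxp3 cells, against 522 and 385 in Tconv mock cells, a difference of 0.64 ± 0.26 (limma adjusted p = 0.335). Ndufs1 had 439 and 478 in Tconv Foxp3 cells, against 334 and 261 in Tconv mock cells, a difference of 0.61 ± 0.33. Ndufa9, which lies near the quinone site, had 2461 and 2760.3 in Tconv Foxp3 cells, against 1698 and 1827 in Tconv mock cells, a difference of 0.56 ± 0.28. These 3 complex I genes had both arrays of the Foxp3-labelled group above both mock arrays. All 8 common subunits of complex IV lay above 0 on the deposited scale, from 0.04 to 0.27, with a median of 0.14 that became -0.18 with a common 75th percentile. Ndufa2, Ndufv3 and Ndufb7, accessory subunits of complex I, were lower on both Tconv Foxp3 arrays, with differences of -0.22 ± 0.24, -0.12 ± 0.24 and -0.11 ± 0.23, each less than its SE.

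The arrays labelled scurfy Foxp3, whose Foxp3 signal was likewise not above that of mock, were compared with scurfy mock cells. The median difference was 0.06 with 45 of 72 above 0, against -0.02 and 47.7% over all genes, and without scurfy mock 1 the median was -0.038. Both scurfy Foxp3 arrays were above both mock arrays for 15 of 72 (20.8%), against 14% of all genes, and below for 5, against 8.84%. In limma's test 0 of 72 passed (0.0353% of all genes did), and 1 had an unadjusted p under 0.05, against 4.24% of all. The summed intensity of 7 B cell markers was 764 and 1756 in scurfy Foxp3 cells, against 76.1 and 353 in scurfy mock cells. That of 8 myeloid markers, of which at most 3 were above the array median on any array, was 443 and 536 in scurfy Foxp3 cells, against 243 and 144 in scurfy mock cells. The part of both lists in these values was not tested.

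Ndufb1, a small accessory subunit of complex I, had 119.6 and 77.6 in scurfy Foxp3 cells, against 47.0 and 60.5 in scurfy mock cells, a difference of 0.70 ± 0.29 (limma adjusted p = 0.999) that was 0.43 without scurfy Foxp3 1. Ndufs5 had 361 and 289 in scurfy Foxp3 cells, against 206 and 260.2 in scurfy mock cells, a difference of 0.45 ± 0.27. Ndufa12 differed by 0.36 ± 0.26. All 3 accessory genes were higher on both scurfy Foxp3 arrays, by less than 2-fold. Ndufv3, an accessory subunit of the NADH-binding module, had 3026 and 3549 in scurfy Foxp3 cells, against 4487 and 3903 in scurfy mock cells, a difference of -0.35 ± 0.24. Uqcrh, the hinge protein of complex III, and Ndufa13 differed by -0.25 ± 0.24 and -0.16 ± 0.23.

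The difference between the 2 Foxp3-label effects (scurfy minus Tconv) was tested directly. The members' median was -0.15 with 20 of 72 above 0, against -0.28 and 30.3% over all genes, and it became 0.094 after quantile normalization and 0.21 with a common 75th percentile. None passed limma's test, 0 of 72 members and 0 of 11318 genes (0%), and 0 members had an unadjusted p under 0.05, against 8.06% of all genes. The 95% interval lay within -1 to 1 for 37 of 72, against 6.34% of all genes. The lowest value was Ndufa9 at -0.67 ± 0.40, followed by Ndufs1 at -0.66 ± 0.47, and the highest was Ndufb1 at 0.53 ± 0.40.

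The 2 groups of scurfy cells were each compared with Treg, also GFP+ at the start. For scurfy mock cells the median was 0.07 with 49 of 72 above 0, against 0.04 and 54.1% of all genes, and under quantile normalization it was -0.02. Both scurfy mock arrays were above both Treg arrays for 24 of 72 (33.3%), against 18% of all genes, and below for 4, against 14.5%. For scurfy Foxp3 cells the median was 0.11 with 54 of 72 above 0, against 0.01 and 51.4%. Both scurfy Foxp3 arrays were above both Treg arrays for 36 of 72 (50%), against 18.7% of all genes, and below for 3, against 12.7%. By limma 0 of 72 passed in the scurfy mock comparison (0.256% of all genes did; 1 member had an unadjusted p under 0.05, against 7.93%). The scurfy Foxp3 comparison also had 0 of 72 past limma's test (0.177% of all genes did; 2 members had an unadjusted p under 0.05, against 8.87%). The B cell markers summed to 764 and 1756 in scurfy Foxp3 cells and 76.1 and 353 in scurfy mock cells, against 92.4 and 659.5 in Treg, and the myeloid markers to 443 and 536 in scurfy Foxp3 cells and 243 and 144 in scurfy mock cells, against 158 and 245 in Treg; their part was not tested.

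Complex IV held the members that differed most from Treg. Cox7a1 had 125 and 210.2 in scurfy Foxp3 cells and 78.2 and 206 in scurfy mock cells, against 36.6 and 77.1 in Treg. Scurfy Foxp3 cells differed by 1.35 ± 0.45 (limma adjusted p = 0.414) and scurfy mock cells by 1.05 ± 0.45 (adjusted p = 0.61), with the second replicate high in both scurfy groups and in Treg. The scurfy mock value was 0.43 without scurfy mock 2, 1.67 without scurfy mock 1 and 0.63 without Treg 1. Cox8a, the common form of subunit 8, had 1251 and 1246 in scurfy Foxp3 cells and 1093 and 984 in scurfy mock cells, against 652 and 843 in Treg. The 4 scurfy arrays were all above the Treg arrays, by 0.74 ± 0.25 for scurfy Foxp3 cells (limma adjusted p = 0.416) and 0.48 ± 0.25 for scurfy mock cells. Ndufb1 differed by 0.60 ± 0.29 between scurfy Foxp3 cells and Treg, and by 0.34 without scurfy Foxp3 1. Ndufv3 differed by 0.39 ± 0.24 between scurfy mock cells and Treg. Among the lower members, Atp5mpl and Uqcr11 differed by -0.26 ± 0.33 and -0.17 ± 0.25 between scurfy mock cells and Treg, and Uqcrh and Cox6c, a common subunit of complex IV, by -0.13 ± 0.24 and -0.11 ± 0.24 between scurfy Foxp3 cells and Treg. All of these were smaller than their SE. Cox8c was lower, at 26.2 and 3.51 in scurfy Foxp3 cells and 28.8 and 17.9 in scurfy mock cells, against 34.3 and 29.3 in Treg. Its differences of -0.73 ± 0.36 and -0.29 ± 0.36 stand on intensities near or below the array medians. The first was -0.18 without scurfy Foxp3 2 and -1.29 without scurfy Foxp3 1, and the second -0.089 without scurfy mock 2 and -0.49 without scurfy mock 1. The other tissue form that passed the filter, Cox6b2, known from testis, had 208 and 164 in scurfy Foxp3 cells and 109 and 280.2 in scurfy mock cells, against 39.0 and 199.5 in Treg. Its scurfy mock and Treg replicates were far apart, and both scurfy groups overlapped with Treg.

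The order of the 5 groups was then set out for each gene. On the deposited scale Tconv Foxp3 cells were highest for 52 of 72 genes (34% of all genes) and Treg lowest for 37 of 72 (16.8% of all genes). With quantile normalization Tconv mock cells were highest for 34 and Tconv Foxp3 cells for 23, while scurfy mock cells were lowest for 25 and Treg for 24. With a common 75th percentile Tconv mock cells were highest for 52 and Treg lowest for 50. Under each of the 3 scalings, then, the highest group for most of the 72 genes was 1 of the 2 groups of GFP- starting cells. The share over all genes was worked out on the deposited scale only, so the counts under the rescalings have none beside them. On the deposited scale Tconv mock cells were highest for 9 of 72 members and 7.28% of all genes. The median level of the 72 genes on the deposited scale was 11.29 and 11.09 in scurfy Foxp3 cells, 10.95 and 11.12 in scurfy mock cells, 10.93 and 11.00 in Treg, 11.40 and 11.52 in Tconv Foxp3 cells and 11.19 and 11.18 in Tconv mock cells. On that scale scurfy Foxp3 1 lay above the Tconv mock arrays. After either rescaling, all 6 arrays of GFP+ starting cells were below all 4 of GFP- starting cells.

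**Figure D3:**
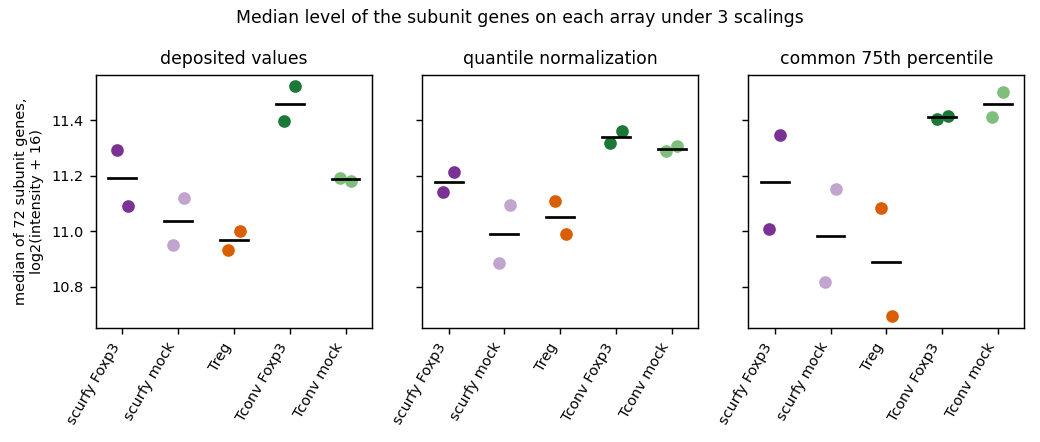
Points give the median log2(intensity + 16) of the 72 subunit genes on each array under 3 scalings, and bars the mean of the 2 arrays of a group. Under both rescalings the 4 Tconv arrays lie above the 6 scurfy and Treg arrays.

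Gene by gene, and as a description chosen after these values were seen, 19 of 72 subunit genes (26.4%) had all 6 arrays of GFP+ starting cells below all 4 arrays of GFP- starting cells, against 2.59% of all genes, and 0 had them all above, against 3.6%. The count was 18 (25%, against 5.22% of all genes) after quantile normalization, with Ndufa1 the only member above, and 19 (26.4%, against 6.97%) with a common 75th percentile. The 11 genes shared by the 3 scalings were Atp5b, Atp5g1, Atp5g3, Atp5l and Atp5mpl of complex V, Uqcr10 and Uqcr11 of complex III, Ndufab1, Ndufb2 and Ndufv1 of complex I, and Cox7a2 of complex IV. These counts use the representative probe set alone. Other probe sets of Ndufab1 and Ndufb2 gave differences of either sign in Treg against Tconv mock. The 19 genes on the deposited scale were 8 of 17 genes of complex V, 3 of 8 of complex III, 6 of 34 of complex I and 2 of 13 of complex IV.

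By limma's F-test over the 5 groups 0 of 72 genes passed (1.91% of all genes did), and 7 had an unadjusted p under 0.05, against 17.8% of all. The lowest belonged to Ndufb2 (adjusted p = 0.159) and Uqcr11 (adjusted p = 0.185), followed by Uqcr10, Cox7a1, Atp5mpl, Atp5g1 and Atp5l. Ndufb2 had 312 and 385 in scurfy Foxp3 cells, 328 and 347 in scurfy mock cells, 339.8 and 315 in Treg, 696 and 716 in Tconv Foxp3 cells and 522 and 385 in Tconv mock cells. It was high on 3 Tconv arrays, and the lower Tconv mock array (385.2) was level with the higher scurfy Foxp3 array (385.1). Uqcr11 had 438 and 569 in scurfy Foxp3 cells, 398 and 463 in scurfy mock cells, 479 and 494 in Treg, 869 and 931 in Tconv Foxp3 cells and 650.4 and 612 in Tconv mock cells. All of its 4 Tconv arrays were above the other 6, and the 2 Tconv groups did not overlap. Uqcr10 had 658 and 798 in scurfy Foxp3 cells, 572 and 650.2 in scurfy mock cells, 865 and 623 in Treg, 1153 and 1533 in Tconv Foxp3 cells and 919 and 979.8 in Tconv mock cells. Its Tconv arrays were again above the rest, with the higher Treg array close to the lower Tconv mock array.

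Atp5l, the g subunit of the ATP synthase membrane part, had 535 and 599.7 in scurfy Foxp3 cells, 518 and 743 in scurfy mock cells, 628 and 591 in Treg, 925 and 1299.7 in Tconv Foxp3 cells and 810.2 and 812 in Tconv mock cells. Atp5mpl had 587 and 999.7 in scurfy Foxp3 cells, 943 and 758 in scurfy mock cells, 1085 and 944 in Treg, 1357 and 1868 in Tconv Foxp3 cells and 1521 and 1275 in Tconv mock cells. Both had their 4 Tconv arrays above the other 6. Cox7a2, the form of subunit 7a found in most tissues, had 3998 and 3881 in scurfy Foxp3 cells, 3712 and 4096 in scurfy mock cells, 3786 and 3453 in Treg, 4625 and 5398 in Tconv Foxp3 cells and 4556 and 4484 in Tconv mock cells, with the same split, while Cox7a1 ran the other way with its highest arrays in scurfy cells. Cox7a2l, a relative that takes part in supercomplexes, had 5252 and 5232 in scurfy Foxp3 cells, 5780.4 and 5906 in scurfy mock cells, 4879 and 6242 in Treg, 5267 and 6399 in Tconv Foxp3 cells and 5985 and 5666 in Tconv mock cells, with groups that overlapped. Cox6a1 and Cox6b1, the common forms of their subunits, spanned 4028 to 5178 and 3619 to 4692 over the 10 arrays with no such split.

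**Figure D4:**
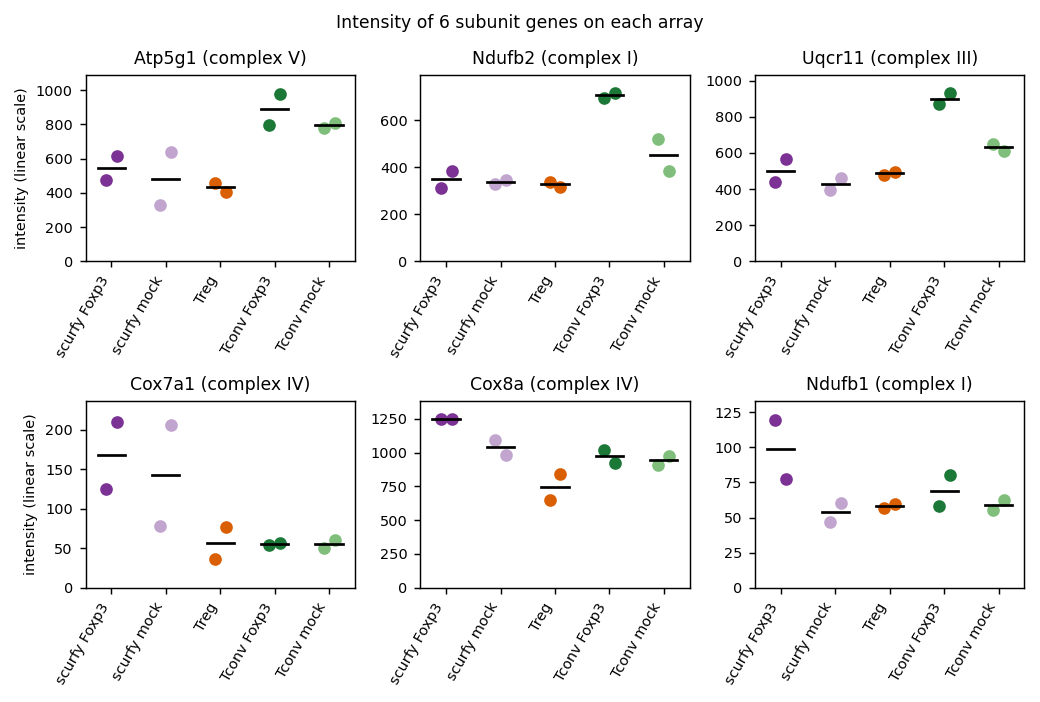
Each panel gives the intensity (linear scale) of 1 subunit gene on every array, with bars at the mean of the 2 arrays of a group. Atp5g1, Ndufb2 and Uqcr11 are highest in Tconv cells, while Cox7a1 and Cox8a are highest in scurfy Foxp3 cells.

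Genes with more than 1 single-symbol probe set gave a further reading. The 140 tested probe sets of the members, each fitted on its own, gave 0 calls by limma in every comparison, with 8 at an unadjusted p under 0.05 in Treg against Tconv mock. Of 68 further probe sets of 40 genes, 49 had the sign of the representative in Treg against Tconv mock, 46 in scurfy mock against Tconv mock and 50 in Tconv Foxp3 against Tconv mock. No share over the probe sets of all genes is given beside these counts, so they describe the members' probe sets only. For Ndufb2, Treg against Tconv mock gave -0.44 for the representative and -0.65 and 0.25 for the other 2. Representative names ending in _x_at (7 genes) or _s_at (11 genes, Uqcrq among them) mark probes that can also read related transcripts.

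Related genes of the pathway, listed by function, also held 0 calls in all of these comparisons. In Treg against Tconv mock the median was -0.12 for the 4 genes of complex II, which feeds electrons from succinate, -0.37 for the 2 cytochromes c and 0.00 for 43 assembly factors, which help build the complexes. The 12 tested regulators of mitochondrial biogenesis had a median of 0.26, on the side of the all-gene median of 0.19. In Tconv Foxp3 against Tconv mock the same lists had medians of 0.33, 0.22, 0.34 and 0.60, where all genes had 0.26. With quantile normalization these 4 were 0.09, 0.008, 0.05 and 0.32, and with a common 75th percentile 0.02, -0.10, 0.06 and 0.32. The medians of the assembly factors in Treg turned to -0.36 with quantile normalization and -0.34 with a common 75th percentile. For the regulators in Treg the sign turned, to -0.05 and -0.07 under those scalings.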

How the data were processed

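Expression was measured on 10 arrays. The authors processed them with Affymetrix Expression Console, per the submitters' processing notes. The deposited values are linear-scale intensities, 1 per probe set and array. How probes were summarised and arrays scaled is not given in the sources used here. The table held 45101 probe sets (64 controls): 34945 had 1 gene symbol, 932 several and 9211 none, and 10 with several symbols that touched the rule were left out.

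Groups came from titles and descriptions. Each gene took its probe set with the highest mean log2(intensity + 16). The filter kept 11318 genes that exceeded their array's median on 2 or more arrays, with no further normalization. limma 3.58.1 in R 4.3.3 (lmFit, eBayes) was fitted over all 10 arrays with 5 residual degrees of freedom, prior 4.09. Two-sided p-values were adjusted per comparison over all 11318 genes (Benjamini-Hochberg), with calls at an adjusted p under 0.05. SE is that of the fit. A list is described by counts and its median beside those of all genes. The code was tested on simulated data. The number of arrays limits the precision. Alternatives were quantile normalization, a common 75th percentile, pseudocounts of 1 and 64, other filters, the mean of a gene's probe sets, trend and robust options, a replicate block, the compared groups alone, and leaving out each array. Counts of members below 0 under these were added after seeing the data.

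The members and lists were chosen with earlier results of these data known. In each comparison the text names the 3 highest and 3 lowest members among those whose groups do not overlap, fixed core subunits and isoforms. Further members were named for their role or F-test, after their values were seen. Levels of single genes were not compared with each other, and only the members' median level was set beside that of all genes.

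Same-numbered arrays deviated together with correlations of -0.172 to 0.185 over genes, so the numbers were not treated as pairs.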

Additional observations from a re-analysis of the deposited data

How the results depend on the processing

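In every comparison, 0 of the members passed limma's test under each alternative tried. Of the counts and medians over the members, 353 values stayed the same within the limits set and 14 moved. Many of the 353 could not move. The trend and robust options, the replicate block and the compared groups alone leave the log2 differences unchanged by construction. Leaving out an array outside the compared groups does so too, so the tally does not measure robustness. Scaling mattered most. With quantile normalization the members' median log2 difference was -0.27 for scurfy mock against Tconv mock, -0.040 for Tconv Foxp3 against Tconv mock and 0.094 for the difference of Foxp3-label effects. With a common 75th percentile it was -0.55 for Treg against Tconv mock, and -0.42, -0.14 and 0.21 for those same 3. These scalings move the all-gene median of Treg against Tconv mock to -0.05 and -0.11, where the deposited values gave 0.19. Members below 0 in Tconv Foxp3 against Tconv mock numbered 43 and 61 under these scalings, where the deposited values gave 13. Leaving out 1 array at a time gave medians of -0.23 to -0.18 for Treg against Tconv mock, -0.16 to -0.049 for scurfy mock against Tconv mock, 0.075 to 0.26 for Tconv Foxp3 against Tconv mock, -0.038 to 0.13 for scurfy Foxp3 against scurfy mock, 0.021 to 0.14 and 0.092 to 0.14 for scurfy mock and scurfy Foxp3 against Treg, and -0.21 to -0.049 for the difference. Members below 0 then numbered 53 to 61 for Treg and 42 to 52 for scurfy mock, each against Tconv mock. In Tconv Foxp3 against Tconv mock they numbered 11 to 23, the highest without Tconv Foxp3 2. The all-gene median of Treg against Tconv mock moved more, to 0.02 without Treg 2 and 0.36 without Treg 1. Of named genes, 4 values reversed: Ndufab1 with the mean of its probe sets (0.021 in Treg and 0.13 in scurfy mock, each against Tconv mock), Ndufa1 in Treg against Tconv mock with a common 75th percentile (-0.10), and Cox6a2 in scurfy mock against Tconv mock with quantile normalization (-0.017). The other 709 kept their direction and their side of the threshold, in many cases by that same construction. With the replicate block, the medians were -0.20 for Treg and -0.11 for scurfy mock, each against Tconv mock, and 0 members were called in any comparison, so the block changed no call. Beyond the scaling's own construction, the cause was not tested. Signals near the array median limit the dim isoforms.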

Other observations

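Genes of mitochondrial and cytosolic protein synthesis, listed by function, gave further values from the same fits. In Treg against Tconv mock the 76 mitochondrial ribosomal protein genes, which build ribosomes that translate mitochondrial DNA, had a median log2 difference of -0.29. Of these, 66 of 76 were below 0, while 64.8% of all genes lay above 0. In 51 of 76 both Treg arrays were below both Tconv mock arrays, against 16.3% of all genes. By limma 0 were called (1.09% of all genes were), and 10 of 76 had an unadjusted p under 0.05, against 15.4% of all. In scurfy mock against Tconv mock their median was -0.22, with 63 of 76 below 0, while 68% of all genes lay above 0. In Tconv Foxp3 against Tconv mock it was 0.37 on the deposited scale, and 0.07 with either rescaling.

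The 43 tested cytosolic ribosomal protein genes had medians against Tconv mock of -0.11 for Treg, -0.09 for scurfy mock cells and 0.07 for Tconv Foxp3 cells, the last being 0.012 with quantile normalization and -0.25 with a common 75th percentile. The 14 genes of the proteasome core, which degrades proteins, were all below 0 in Treg against Tconv mock (median -0.16). Of all genes, 64.8% lay above 0 there. In scurfy mock against Tconv mock the proteasome median was 0.02 (-0.11 with quantile normalization and -0.30 with a common 75th percentile). All 14 were above 0 in Tconv Foxp3 against Tconv mock (median 0.27), as were 72.4% of all genes. That median was 0.05 with quantile normalization and -0.05 with a common 75th percentile. By limma 0 of these genes were called. Mast cell markers summed to 578 on Treg 2, where Mcpt1 alone had 537 and 1 of the 4 markers was above the array median. B cell markers ranged from 76.1 to 1756 over the arrays. The part of both lists in these values was not tested.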
